A study of Mus musculus with 12 samples.

Results

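The genes described here code for the structure of the extracellular matrix: collagens, laminins and other basement membrane proteins, elastic fibre proteins, adhesive glycoproteins, proteoglycans and the enzymes that cross-link collagen. They were chosen by gene symbol from a list of 47 names, and those with at least 10 reads summed over the 12 libraries were kept, which left 43 of the 23446 genes in the deposited table. Of the names not kept, Col15a1 had 6 reads in all 12 libraries together, Lum had 2, and Eln and Fbn2 had 1 each. Col11a1 and Tgfbi, with 74 and 82 reads, were too low to be tested, so 41 genes were tested among 12230 in the whole table.

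Messenger RNA came from C2C12, an established mouse line of skeletal muscle precursor cells (myoblasts). The 4 groups of 3 libraries each were acetoacetate (AA), a ketone body, in growth medium (GM-AA), its PBS control in growth medium (GM-PBS), AA in differentiation medium (DM-AA) and its PBS control in differentiation medium (DM-PBS), with the AA treatment lasting 12 h. The study asked which messenger RNAs respond to AA while these cells proliferate and while they differentiate. The labels state neither the dose nor the salt of AA, nor whether replicate libraries came from separate cultures. The p-values therefore set a group difference only against the variation among these libraries, and that variation may be technical.

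The matrix around muscle fibres has a basement membrane of type IV collagen, laminin, nidogen and perlecan, and outside it an interstitial mesh of fibrillar collagens I, III and V, type VI collagen, fibronectin and proteoglycans. Collagen is made as a precursor that is hydroxylated and folded in the endoplasmic reticulum, secreted, trimmed and then cross-linked by lysyl oxidases. Myoblasts in culture make much of this matrix themselves, and transforming growth factor beta (TGF-beta) is a well known inducer of many of its genes.

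Each library held 7959519 to 9893564 reads assigned to genes, and 8 of 8 myoblast markers were detected, with a summed level of 2705 to 2791 CPM in GM-AA, 2316 to 2386 CPM in GM-PBS, 3106 to 3366 CPM in DM-AA and 2656 to 2691 CPM in DM-PBS. CPM here means read counts scaled to a common library size by the trimmed mean of M values (TMM). RPKM means the deposited values, which are also scaled by gene length, per the file header the union of all possible exons. Markers of other matrix-making cells were mixed. Of 7 fibroblast and fibro-adipogenic markers Tcf21 had 0 reads and 4 were high enough to test, and Ly6a stood at 171 to 188 CPM and Pdgfra at 26.1 to 63.0 CPM over the group means. Of 8 osteoblast and chondrocyte markers Ibsp and Sost had 0 reads and 2 were high enough to test, Sox9 at 80.6 to 162 CPM and Runx2 at 85.6 to 102 CPM. Adipocyte, immune and endothelial lists summed to at most 4.83 CPM in any library, and Plin1, Lep and Emcn had 0 reads. In a bulk library, fewer cells of a type and less RNA per cell cannot be told apart. Changes below are log2 fold changes ± SE with n = 3 libraries per group from edgeR's quasi-likelihood test, called at a Benjamini-Hochberg false discovery rate (FDR) of 5% over all 12230 tested genes.

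The matrix genes were abundant, with a median of the mean level of 350.4 CPM among the 41 tested, against 34.4 CPM over all tested genes. Together the 43 genes took 3.21% ± 0.134 of the reads in GM-AA and 3.48% ± 0.0354 in GM-PBS, and 3.22% ± 0.0133 in DM-AA and 3.74% ± 0.0510 in DM-PBS (SD, n = 3). In neither medium did the AA and PBS libraries overlap in this share. Fn1, the gene of fibronectin, alone held 33.4% of these reads in GM-AA, 36.1% in GM-PBS, 25.3% in DM-AA and 30.2% in DM-PBS. Without Fn1 the share was 2.14% in GM-AA, 2.22% in GM-PBS, 2.41% in DM-AA and 2.61% in DM-PBS.

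Per gene length, 3 glycoprotein and proteoglycan genes stood at the top in every group: Fn1, Sparc (osteonectin, a collagen-binding matricellular protein) and Bgn (biglycan, a small leucine-rich proteoglycan). In GM-AA their levels were 811 ± 48 RPKM for Fn1, 710.2 ± 18 RPKM for Sparc and 509 ± 21 RPKM for Bgn, and in GM-PBS they were 962 ± 19, 622 ± 38 and 494 ± 6.1 RPKM in the same order (SD, n = 3). In DM-AA the order of the first pair was turned, with Sparc at 863 ± 34 RPKM, Fn1 at 623 ± 13 RPKM and Bgn at 569.6 ± 17 RPKM, against 773 ± 47 RPKM for Sparc, 869 ± 32 RPKM for Fn1 and 576 ± 8.3 RPKM for Bgn in DM-PBS. These neighbours in the order did not overlap in any group. Lox, the founding lysyl oxidase, was 4th in GM-AA and GM-PBS, 6th in DM-PBS and 7th in DM-AA. Lower down, neighbours overlapped: Tnc and Thbs1 in GM-PBS, and Col3a1, Thbs1 and Col1a2 in DM-AA. Fmod, Tgfbi and Col11a1 were the lowest genes.

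**Figure D1:**
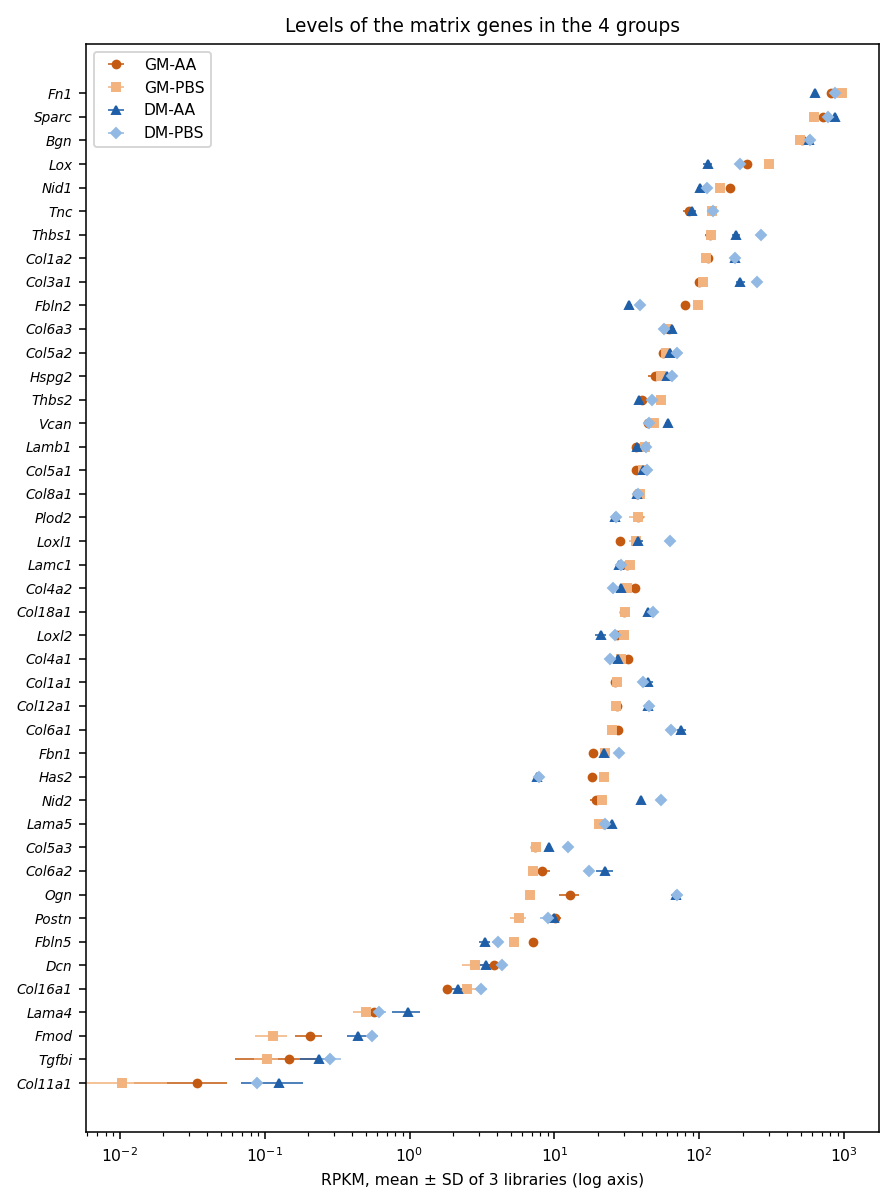
Level of each of the 43 kept matrix genes in the 4 groups as deposited RPKM (log axis; symbols are means and bars the SD of 3 libraries, and a bar that reaches 0 runs off the axis). Fn1, Sparc and Bgn stand at the top in every group, and Ogn is far higher in the DM groups than in the GM groups.

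With AA, Lox, Loxl1, Loxl2, Fn1, Tnc and Fbn1 fell in both media, Col6a1, Col6a2 and Col6a3 rose in DM, and Ogn and Postn rose in GM. AA changed 19 of 41 matrix genes in growth medium, 7 higher and 12 lower (46.3%), where 20.7% of all tested genes were called, 9.76% higher and 11% lower. In differentiation medium it changed 28 of 41, 9 higher and 19 lower (68.3%), where 26.4% of all tested genes were called, 12.6% higher and 13.8% lower. The median over the 41 genes was -0.041 in GM and -0.12 in DM, against -0.0034 in GM and 0.0021 in DM over all tested genes. Most changes were small: 2 called genes in GM and 4 in DM changed by at least 1.5-fold. The matrix genes also had more reads (a median of 350.4 CPM, against 34.4 CPM over all tested genes). A change of a given size is called more readily in genes with more reads. The shares called were not compared at equal read level, here or below. These AA comparisons share no library. In both media 10 genes were lower with AA (Lox, Loxl1, Loxl2, Tnc, Thbs2, Fn1, Fbn1, Fbln2, Col16a1 and Lamb1), as were 788 of all tested genes (6.44%). Col4a2 and Sparc were higher in both media, as were 4.52% of all tested genes, and 9 of the 41 genes were called in neither, against 64.3% of all tested genes. Nid1, Fbln5 and Dcn were higher with AA in GM and lower with AA in DM, as were 23 of all tested genes (0.188%). AA effects over all 12143 genes with a GC content followed GC content (Spearman's rho across genes -0.27 in GM and -0.27 in DM, genes not being independent), and across the 41 matrix genes rho was -0.17 in GM and -0.039 in DM. The matrix genes had a median GC content of 52.5%, against 49.7% over all tested genes. Where the call of a matrix gene was lost when this trend was fitted and removed, when the replicate number entered as a block, with DESeq2 or without 1 library, that is given beside the gene.

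**Figure D2:**
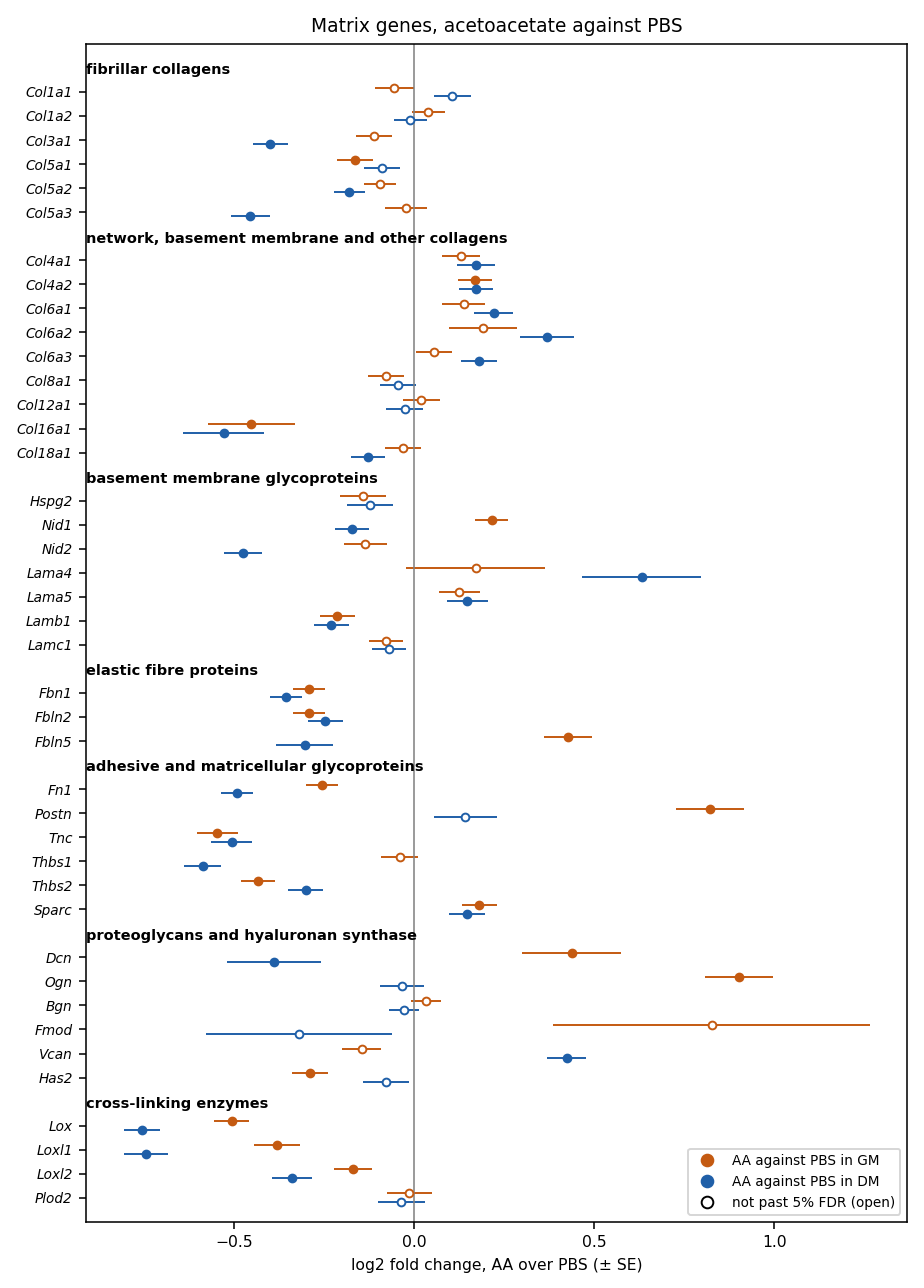
Log2 fold change of AA over PBS in GM (orange) and in DM (blue) for the 41 tested matrix genes by role (points are estimates from 3 libraries per group, bars ± 1 SE, filled points past 5% FDR). In both media Lox, Loxl1, Tnc and Thbs2 lie left of 0, and Ogn and Postn lie far to the right in GM.

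Of the 4 tested cross-linking enzymes, 3 fell with AA in both media, as did 6.44% of all tested genes. Lox, Loxl1 and Loxl2 encode lysyl oxidases, copper enzymes that oxidise lysines of collagen and elastin and so start their cross-links. Lox had 1576, 1681 and 1709.8 CPM in GM-AA, against 2233, 2395 and 2429 CPM in GM-PBS, and 926, 866 and 801 CPM in DM-AA, against 1489.6, 1434 and 1459 CPM in DM-PBS. All 3 AA libraries were below all 3 PBS libraries in each medium, and the DM-AA libraries were the lowest of the 12. The change was -0.51 ± 0.049 in GM (adjusted p = 1.54e-09) and -0.76 ± 0.05 in DM (adjusted p = 1.16e-13), and the value in DM was the lowest of the 41 genes there. Loxl1, best known for its role in elastic fibres, had 135, 154 and 155 CPM in GM-AA, against 211, 170.4 and 197 CPM in GM-PBS, and 202, 204 and 176 CPM in DM-AA, against 322, 320.1 and 335 CPM in DM-PBS. The groups did not overlap in either medium, and the DM-PBS libraries stood well above the other 9. The change of Loxl1 was -0.38 ± 0.064 in GM (adjusted p = 4.18e-05) and -0.75 ± 0.062 in DM (adjusted p = 2.15e-11). Loxl2 had 181, 163 and 152 CPM in DM-AA, against 209, 213 and 207 CPM in DM-PBS, with no overlap, a change of -0.34 ± 0.055 (adjusted p = 1.12e-05). In GM, Loxl2 had 209.6, 218 and 228 CPM in GM-AA, against 233, 254 and 251 CPM in GM-PBS, also with no overlap, a change of -0.17 ± 0.053, whose call was lost without GM-AA replicate 1, GM-PBS replicate 2 or GM-PBS replicate 3 (adjusted p up to 0.0862). Plod2, the lysyl hydroxylase that prepares collagen telopeptides for cross-linking, was not called in either medium.

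Among the adhesive and matricellular glycoproteins, 3 of 6 tested genes fell and 2 rose with AA in GM, and 4 fell and 1 rose in DM. Of all tested genes, 11% fell and 9.76% rose in GM, and 13.8% fell and 12.6% rose in DM. Fibronectin is the adhesive protein that integrins bind and on which other matrix proteins assemble. Fn1 had 10059.6, 11439 and 10600.0 CPM in GM-AA, against 12968, 12493 and 12881 CPM in GM-PBS, and 8247, 8017 and 7899.5 CPM in DM-AA, against 11688, 11494 and 10809 CPM in DM-PBS. The AA libraries were the lower ones in each medium without overlap, and the change was -0.26 ± 0.045 in GM (adjusted p = 8.02e-05) and -0.49 ± 0.046 in DM (adjusted p = 2.79e-10). Tnc (tenascin C), an anti-adhesive glycoprotein of developing and healing tissue, had 839, 992 and 988 CPM in GM-AA, against 1407, 1343 and 1368 CPM in GM-PBS. It had 1031, 969 and 898 CPM in DM-AA, against 1426, 1422 and 1271 CPM in DM-PBS. Every AA library was below every PBS library, with a change of -0.55 ± 0.056 in GM (adjusted p = 6.85e-09) and -0.51 ± 0.056 in DM (adjusted p = 1.51e-08). Thbs2 (thrombospondin 2), an inhibitor of angiogenesis that also affects collagen fibril assembly, changed by -0.43 in GM and -0.30 in DM.

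Thbs1 (thrombospondin 1), known as an activator of latent TGF-beta, was lower with AA in DM. It had 1698, 1608 and 1489.8 CPM in DM-AA, against 2446, 2396 and 2365 CPM in DM-PBS, and 971, 1141 and 1112 CPM in GM-AA, against 1121, 1116 and 1079.7 CPM in GM-PBS. The DM groups did not overlap and the GM groups did, with changes of -0.59 ± 0.051 in DM (adjusted p = 8.24e-11) and -0.041 ± 0.052 in GM (adjusted p = 0.634). Postn (periostin), a matricellular protein that binds fibronectin and collagen I, was called higher with AA in GM. Its levels were 45.9, 52.9 and 56.996 CPM in GM-AA, against 25.6, 29.6 and 32.97 CPM in GM-PBS, and 44.9, 51.6 and 54.9 CPM in DM-AA, against 40.7, 46.1 and 51.1 CPM in DM-PBS. The GM-PBS libraries were the lowest of the 12, and the DM groups overlapped. The change was 0.82 ± 0.094 in GM (adjusted p = 5.85e-08) and 0.14 ± 0.088 in DM (adjusted p = 0.252). Sparc was higher with AA by 0.18 ± 0.049 in GM and 0.15 ± 0.049 in DM. The Sparc call in GM was lost without GM-PBS replicate 1 (adjusted p = 0.0588), and the call in DM was lost without DM-AA replicate 3, DM-PBS replicate 1 or DM-PBS replicate 2 (adjusted p up to 0.138).

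Of the proteoglycans and Has2, AA raised 2 and lowered 1 of 6 tested in GM, and raised 1 and lowered 1 in DM. The shares over all tested genes were 9.76% higher and 11% lower in GM, and 12.6% higher and 13.8% lower in DM. The DM counts, 16.7% each way, were near those shares. Ogn (osteoglycin or mimecan) is a small leucine-rich proteoglycan, of the same broad family as decorin and biglycan. It had 45.8, 45.5 and 60.4 CPM in GM-AA, against 26.97, 25.7 and 28.4 CPM in GM-PBS, and 248, 274 and 289.8 CPM in DM-AA, against 268, 268 and 295 CPM in DM-PBS. All DM libraries were far above all GM libraries, the GM groups were apart and the DM groups overlapped. Ogn changed by 0.90 ± 0.095 in GM (adjusted p = 1.09e-08), the highest value of any called matrix gene there, and by -0.033 ± 0.061 in DM (adjusted p = 0.734). In DM it was called in 1 alternative, with the GC trend removed and the replicate block (adjusted p = 0.0286). Dcn (decorin), which binds collagen fibrils and TGF-beta, was a low gene with 14.2, 11.2 and 12.1 CPM in GM-AA, against 7.51, 11.03 and 9.27 CPM in GM-PBS. In DM it had 11.4, 9.55 and 11.2 CPM in DM-AA, against 14.96, 13.2 and 13.9 CPM in DM-PBS. The AA libraries were the higher ones in GM and the lower ones in DM, in each case without overlap but with a narrow gap in GM. The change was 0.44 ± 0.14 in GM (adjusted p = 0.0206) and -0.39 ± 0.13 in DM (adjusted p = 0.0241). The GM call of Dcn was lost with DESeq2, with the GC trend removed, and without GM-AA replicate 1, GM-PBS replicate 1 or GM-PBS replicate 3 (adjusted p up to 0.161). Its DM call was lost with DESeq2 and without DM-AA replicate 2 or DM-PBS replicate 1 (adjusted p up to 0.122).

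Vcan (versican), a large chondroitin sulphate proteoglycan that binds hyaluronan, went up with AA in DM. It had 1314, 1367 and 1412 CPM in DM-AA, against 1075, 1049.6 and 926 CPM in DM-PBS, and 923, 1076 and 1073 CPM in GM-AA, against 1121, 1131 and 1146 CPM in GM-PBS. The 3 DM-AA libraries were the highest of the 12. Vcan changed by 0.42 ± 0.054 in DM (adjusted p = 2.07e-07) and by -0.15 ± 0.054 in GM (adjusted p = 0.0527), where the groups did not overlap and the test was missed. In GM it was called lower with no filter on low counts, with the GC trend removed and without GM-AA replicates 2 or 3 (adjusted p = 2.13e-04 at the lowest). Has2, the main hyaluronan synthase of mesenchymal cells, had 124, 116 and 119 CPM in GM-AA, against 139, 155 and 145 CPM in GM-PBS. That was a separation of all 3 AA libraries below all 3 PBS libraries, a change of -0.29 ± 0.05 (adjusted p = 5.07e-05). In DM, Has2 had 47.5, 50.9 and 48.6 CPM in DM-AA, against 52.8, 50.9 and 51.5 CPM in DM-PBS, and was not called (-0.08, adjusted p = 0.393) except with the GC trend removed (adjusted p = 0.0439 at the lowest). Bgn was not called in either medium, with 95% intervals of -0.05 to 0.11 in GM and -0.11 to 0.053 in DM. Fmod (fibromodulin), at 0.922 ± 0.187 CPM in GM-AA and 0.513 ± 0.127 CPM in GM-PBS (SD, n = 3), was not called in either medium. Its change in GM was 0.83 ± 0.44 (adjusted p = 0.216), with groups that did not overlap.

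All 3 tested elastic fibre genes fell with AA in DM, and in GM 2 fell and 1 rose. The shares over all tested genes were 13.8% lower in DM, and 11% lower and 9.76% higher in GM. Fbn1 encodes fibrillin 1, the core of the microfibrils on which elastin is laid down. It had 273, 296 and 286 CPM in GM-AA, against 352, 353 and 343 CPM in GM-PBS, and 339, 331 and 339 CPM in DM-AA, against 440.5, 434 and 417 CPM in DM-PBS. The groups were apart in both media, with changes of -0.29 ± 0.045 in GM (adjusted p = 1.05e-05) and -0.36 ± 0.044 in DM (adjusted p = 1.46e-07). Exons of the antisense gene Gm9913 overlap 20.1% of the exon bases of Fbn1, and since the strand of the counting is not given in the sources used here, reads of that stretch cannot be told apart. Fbln2 (fibulin 2) had 541, 587 and 552 CPM in GM-AA, against 706, 677 and 675 CPM in GM-PBS, and 229.7, 233 and 215 CPM in DM-AA, against 277, 262 and 266 CPM in DM-PBS. AA libraries were lower without overlap, with changes of -0.29 ± 0.045 in GM (adjusted p = 1.27e-05) and -0.25 ± 0.049 in DM (adjusted p = 1.92e-04). Fbln5 (fibulin 5), which brings elastin and lysyl oxidases to the microfibrils, had 63.5, 66.7 and 67.9 CPM in GM-AA, against 49.2, 49.002 and 49.1 CPM in GM-PBS. In DM it had 28.9, 28.05 and 32.7 CPM in DM-AA, against 34.9, 35.4 and 40.7 CPM in DM-PBS. AA libraries were the higher ones in GM and the lower ones in DM without overlap, 0.43 ± 0.066 in GM (adjusted p = 1.1e-05) and -0.30 ± 0.079 in DM (adjusted p = 0.00368). Elastin itself, Eln, had 1 read in all.

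Fibrillar collagens moved little in GM, where 1 of 6 tested fell, and 3 of 6 fell in DM. Of all tested genes 11% fell in GM and 13.8% in DM, so the count in GM (16.7%) was near that share. Type I collagen, the main fibrillar collagen, was not called in either medium. In GM, Col1a2 changed by 0.039 (95% interval -0.051 to 0.13) and Col1a1 by -0.055 (95% interval -0.161 to 0.0505). In DM, Col1a1 changed by 0.11 (95% interval 0.0053 to 0.21) and Col1a2 by -0.0105 (95% interval -0.0998 to 0.0788). Col1a1 was called higher in DM with the GC trend removed and without DM-AA replicate 1 (adjusted p = 5.68e-04 at the lowest). Col3a1, the single chain of type III collagen, had 1719.5, 1515 and 1687 CPM in DM-AA, against 2096, 2153 and 2243 CPM in DM-PBS, and 835, 872 and 885 CPM in GM-AA, against 884, 952 and 963 CPM in GM-PBS. The DM groups were apart and the GM groups overlapped, and the change was -0.40 ± 0.048 in DM (adjusted p = 7.47e-08) and -0.11 ± 0.049 in GM (adjusted p = 0.105). Type V collagen regulates the diameter of collagen I fibrils. Col5a3 had 82.998, 89.5 and 82.8 CPM in DM-AA, against 119.7, 115 and 115 CPM in DM-PBS, and 68.4, 65.99 and 76.1 CPM in GM-AA, against 68.8, 73.1 and 71.8 CPM in GM-PBS. Again the groups were apart in DM only, with -0.45 ± 0.055 in DM (adjusted p = 7.13e-08) and -0.023 ± 0.059 in GM (adjusted p = 0.834). Col5a2 had 632, 626 and 639 CPM in DM-AA, against 686, 737 and 727 CPM in DM-PBS, a change of -0.18 ± 0.044 with no overlap. Col5a1 changed by -0.16 in GM, a call lost with the GC trend removed and without GM-AA replicate 1 or GM-PBS replicate 2 (adjusted p up to 0.179).

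Type IV collagen forms the network of the basement membrane, and its genes Col4a1 and Col4a2 lie head to head on mouse chromosome 8 with a shared promoter. RefSeq's promoter windows on GRCm38.p6, from 250 bases before to 50 after each gene's start, are shown here because both genes moved the same way, and the 78 bases that the windows share are in capitals, each window read 5′ to 3′ on its own gene's strand. Col4a1 starts at position 11312826 on the minus strand and its window is chr8:11312777-11313076, and Col4a2 starts at 11312805 on the plus strand with the window chr8:11312555-11312854.
Col4a1: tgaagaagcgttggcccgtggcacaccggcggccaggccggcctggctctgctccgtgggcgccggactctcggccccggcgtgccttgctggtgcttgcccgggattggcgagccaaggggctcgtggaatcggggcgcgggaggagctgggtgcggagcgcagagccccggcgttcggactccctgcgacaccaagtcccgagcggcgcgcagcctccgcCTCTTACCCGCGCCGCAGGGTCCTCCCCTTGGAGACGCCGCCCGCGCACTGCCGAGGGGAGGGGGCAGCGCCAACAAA
Col4a2: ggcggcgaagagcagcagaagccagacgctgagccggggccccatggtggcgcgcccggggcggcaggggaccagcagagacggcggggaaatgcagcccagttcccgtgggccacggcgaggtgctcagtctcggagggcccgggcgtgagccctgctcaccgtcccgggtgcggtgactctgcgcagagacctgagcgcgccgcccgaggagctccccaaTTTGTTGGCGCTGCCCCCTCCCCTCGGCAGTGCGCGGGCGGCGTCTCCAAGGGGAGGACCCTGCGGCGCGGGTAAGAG
Both windows held GGGCGG and CCAAT when both strands were read. With AA, Col4a2 rose by 0.17 ± 0.047 in GM (adjusted p = 0.00922) and 0.17 ± 0.048 in DM (adjusted p = 0.00756), and Col4a1 by 0.17 ± 0.053 in DM (adjusted p = 0.0151), with 0.13 ± 0.052 in GM, where it missed the test (adjusted p = 0.0739). The Col4a2 call was lost in GM without GM-AA replicate 2 (adjusted p = 0.0512) and in DM without DM-AA replicate 3 (adjusted p = 0.0696), and the Col4a1 call in DM without DM-AA replicate 3 or DM-PBS replicate 1 (adjusted p up to 0.172).

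Type VI collagen is the beaded filament collagen next to the muscle basement membrane, whose mutations cause muscle disease. All 3 of its tested genes rose with AA in DM, where 12.6% of all tested genes rose, and none was called in GM. Col6a2 had 111, 128 and 145 CPM in DM-AA, against 97.7, 100.1 and 100.1 CPM in DM-PBS, and Col6a1 had 428, 455 and 490.1 CPM in DM-AA, against 395, 369 and 415 CPM in DM-PBS. The DM groups did not overlap for either gene, and DM-AA replicate 3 was the highest library for both. The changes in DM were 0.37 ± 0.074 for Col6a2, 0.22 ± 0.053 for Col6a1 and 0.18 ± 0.051 for Col6a3, and in GM they were 0.19, 0.14 and 0.054 in the same order with adjusted p of 0.154, 0.0962 and 0.493. Without GM-AA replicate 1, all 3 type VI genes and Col4a1 were called higher in GM too (adjusted p = 0.0162 for Col6a2 and 0.0409 for Col6a3). With the GC trend removed, Col6a1 (adjusted p = 0.0136) and Col4a1 (adjusted p = 0.00285) were also called higher in GM, as were all 3 type VI genes with the GC trend removed and the replicate block. Col16a1, a fibril-associated collagen, had 18.9, 14.2 and 18.9 CPM in DM-AA, against 22.5, 26.9 and 26.1 CPM in DM-PBS, and 13.6, 14.9 and 16.02 CPM in GM-AA, against 19.004, 23.8 and 18.2 CPM in GM-PBS. AA libraries were lower in both media without overlap, -0.53 ± 0.11 in DM and -0.45 ± 0.12 in GM, and the GM call was lost without GM-PBS replicate 2 (adjusted p = 0.0742). Col18a1, the source of endostatin, was at the edge of the test in DM (-0.13, adjusted p = 0.0472), a call lost with DESeq2, with RLE size factors, with the GC trend removed and without DM-AA replicates 2 or 3 or DM-PBS replicates 1 or 2 (adjusted p up to 0.662).

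The basement membrane glycoproteins went in both directions. Nid1 and Nid2 encode nidogens, which join the laminin and collagen IV networks. Nid1 had 1541, 1561 and 1487 CPM in GM-AA, against 1379.7, 1279 and 1295 CPM in GM-PBS, and 990.1, 902 and 938 CPM in DM-AA, against 1103, 1071 and 1015 CPM in DM-PBS. All 3 GM-AA libraries were above GM-PBS and all 3 DM-AA libraries below DM-PBS, 0.22 ± 0.046 in GM (adjusted p = 8.56e-04) and -0.17 ± 0.047 in DM (adjusted p = 0.0054). The Nid1 call in DM was lost without DM-AA replicate 2 (adjusted p = 0.051). Nid2 had 293, 295 and 304 CPM in DM-AA, against 426, 408 and 406 CPM in DM-PBS, and 133, 151 and 162 CPM in GM-AA, against 174, 164 and 151 CPM in GM-PBS. The DM groups were far apart and the GM groups overlapped, with -0.48 ± 0.054 in DM (adjusted p = 2.05e-08) and -0.14 ± 0.059 in GM (adjusted p = 0.0994). Exons of the antisense gene Rtraf overlap 8.45% of the exon bases of Nid2, with the same limit as for Fbn1. Nid2 was called lower in GM without GM-AA replicate 3 or GM-PBS replicate 3 (adjusted p = 0.0241 at the lowest). Lamb1, the laminin beta 1 chain, had 318, 351 and 322 CPM in GM-AA, against 397, 363 and 389 CPM in GM-PBS, and 327, 319 and 338 CPM in DM-AA, against 396, 378 and 379 CPM in DM-PBS. Its libraries were lower with AA in both media without overlap, with changes of -0.21 ± 0.048 in GM (adjusted p = 0.00143) and -0.23 ± 0.048 in DM (adjusted p = 4.55e-04). The laminin alpha chains Lama4 and Lama5 were called higher in DM (0.63 ± 0.17 for Lama4 and 0.15 ± 0.056 for Lama5). The Lama4 call was lost without DM-AA replicate 3 (adjusted p = 0.0757). The Lama5 call (adjusted p = 0.0496) was lost with DESeq2, with the replicate block and without each of DM-AA replicates 1, 2 and 3 and DM-PBS replicates 2 and 3 (adjusted p up to 0.169). In GM, Lama5 missed the test (adjusted p = 0.117) but was called higher with the GC trend removed (adjusted p = 2.35e-04) and without GM-AA replicate 1 or GM-PBS replicate 1. Lamc1 and Hspg2 (perlecan) were not called in either medium, though Hspg2 was called with no filter on low counts and without GM-AA replicate 3 in GM or DM-PBS replicate 3 in DM.

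The signed AA effect differed between the media for 13 of 41 genes (31.7%). Of these, the effect in DM minus that in GM was below 0 for 12 and above 0 for 1. A value below 0 does not mean a smaller effect in DM: Thbs1 changed by -0.59 in DM and -0.041 in GM. Among all tested genes 5.24% differed, 2.58% above 0 and 2.67% below 0. These shares too were not compared at equal read level. The tested quantity is the AA effect in DM minus that in GM, in log2 units. For Fbln5 (-0.73 ± 0.1, adjusted p = 1.69e-05), Dcn (-0.83 ± 0.19, adjusted p = 0.00539) and Nid1 (-0.39 ± 0.066, adjusted p = 2.23e-04) the 2 effects had opposite signs, both called. For Ogn (-0.94 ± 0.11, adjusted p = 2.6e-06) and Postn (-0.68 ± 0.13, adjusted p = 9.43e-04) the rise in GM was larger than the change in DM. For Thbs1 (-0.55 ± 0.073, adjusted p = 8.19e-06), Col5a3 (-0.43 ± 0.081, adjusted p = 7.56e-04), Nid2 (-0.34 ± 0.08, adjusted p = 0.00694) and Col3a1 (-0.29 ± 0.069, adjusted p = 0.00787) the effect was called in DM and not in GM. Loxl1 (-0.36), Lox (-0.25, adjusted p = 0.0255) and Fn1 (-0.24, adjusted p = 0.0226) fell in both media and more in DM. The call of Lox was lost without GM-AA replicates 2 or 3, GM-PBS replicate 1, DM-AA replicates 2 or 3 or DM-PBS replicate 1 (adjusted p up to 0.115). That of Fn1 was lost without GM-AA replicate 2, GM-PBS replicate 2, DM-AA replicates 2 or 3 or DM-PBS replicates 1 or 2 (adjusted p up to 0.11), and that of Loxl1 without DM-AA replicate 3 (adjusted p = 0.0533). Vcan was the 1 gene with a higher effect in DM (0.57 ± 0.076, adjusted p = 8.96e-06). For Fbn1, called lower in both media, the difference was -0.063 ± 0.063 (adjusted p = 0.694).

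**Figure D3:**
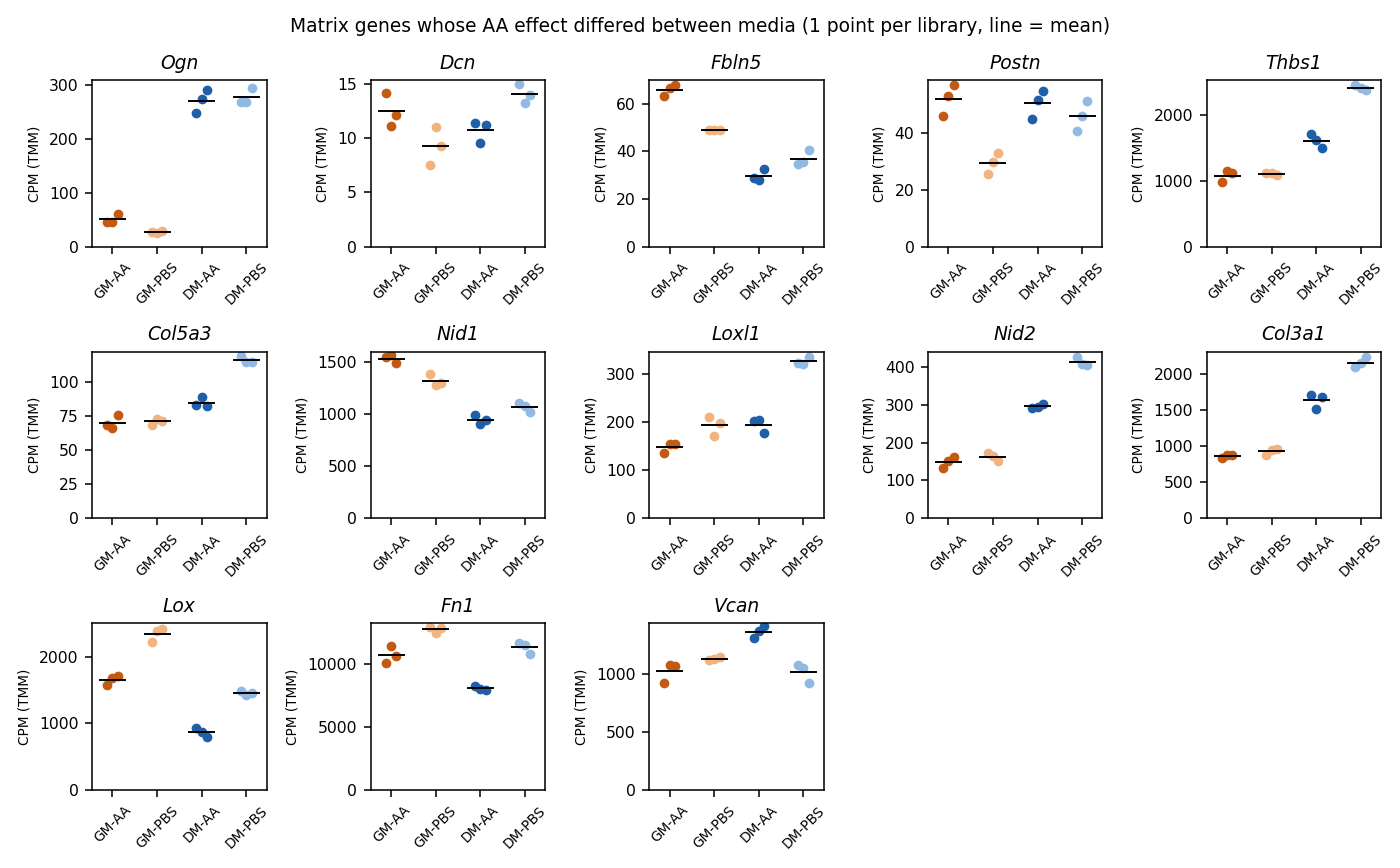
CPM of the 13 matrix genes whose AA effect differed between GM and DM, 1 point per library with the group mean as a line (each y axis starts at 0). Fbln5, Dcn and Nid1 are higher with AA in GM and lower with AA in DM, and Vcan is highest in the 3 DM-AA libraries.

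In differentiation medium without AA, 5 of 6 tested fibrillar collagen genes, Col6a1, Col6a2, Nid2, Thbs1 and Ogn were higher than in growth medium, and Has2, Fbln2 and Lox were lower. Between DM-PBS and GM-PBS, 34 of 41 were called (82.9%), 21 higher and 13 lower in DM-PBS, where 54.4% of all tested genes were called, 27% higher and 27.4% lower. The median over the 41 was 0.21, against 0.0071 over all tested genes, and 17 called genes changed by at least 1.5-fold. This comparison uses the PBS libraries of both AA comparisons, so the values are given side by side and not related to each other. The highest was Ogn, which averaged 277 ± 15.8 CPM in DM-PBS and 27.03 ± 1.34 CPM in GM-PBS (SD, n = 3), a change of 3.36 ± 0.08 (adjusted p = 3.07e-26). Fmod averaged 2.45 ± 0.242 CPM in DM-PBS and 0.513 ± 0.127 CPM in GM-PBS, a change of 2.21 ± 0.35 from few reads. Nid2 (1.34 ± 0.056), Col6a1 (1.33 ± 0.057), Col6a2 (1.25 ± 0.086), Col3a1 (1.21 ± 0.049) and Thbs1 (1.12 ± 0.052) were each at least 2.17-fold higher in DM-PBS. Col6a3, whose product assembles with those of Col6a1 and Col6a2, was not called (-0.087 ± 0.051, adjusted p = 0.149) except with the GC trend removed (adjusted p = 0.00122 at the lowest).

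Fibrillar collagens were higher in DM-PBS for 5 of 6 tested, between 0.21 for Col5a2 and 1.21 for Col3a1. The lowest changes were those of Has2, at 51.7 ± 0.979 CPM in DM-PBS and 147 ± 7.99 CPM in GM-PBS (-1.50 ± 0.055, adjusted p = 1.79e-21), and Fbln2, at 268 ± 7.96 CPM in DM-PBS and 686 ± 17.2 CPM in GM-PBS (-1.35 ± 0.047, adjusted p = 3.41e-22). Cross-linking enzymes split: Lox (-0.69 ± 0.049), Plod2 (-0.54 ± 0.064) and Loxl2 (-0.23 ± 0.053) were lower in DM-PBS and Loxl1 was higher (0.76 ± 0.061). Type IV collagen genes were both lower in DM-PBS, at -0.30 ± 0.053 for Col4a1 and -0.34 ± 0.048 for Col4a2, and Nid1 was lower (-0.31 ± 0.046) and Nid2 higher. Col16a1 was called higher (0.30 ± 0.11), a call lost with the GC trend removed and without GM-PBS replicates 1 or 3 or DM-PBS replicates 2 or 3 (adjusted p up to 0.114). Vcan was called lower (-0.15 ± 0.054), a call lost without DM-PBS replicate 3 (adjusted p = 0.157).

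**Figure D4:**
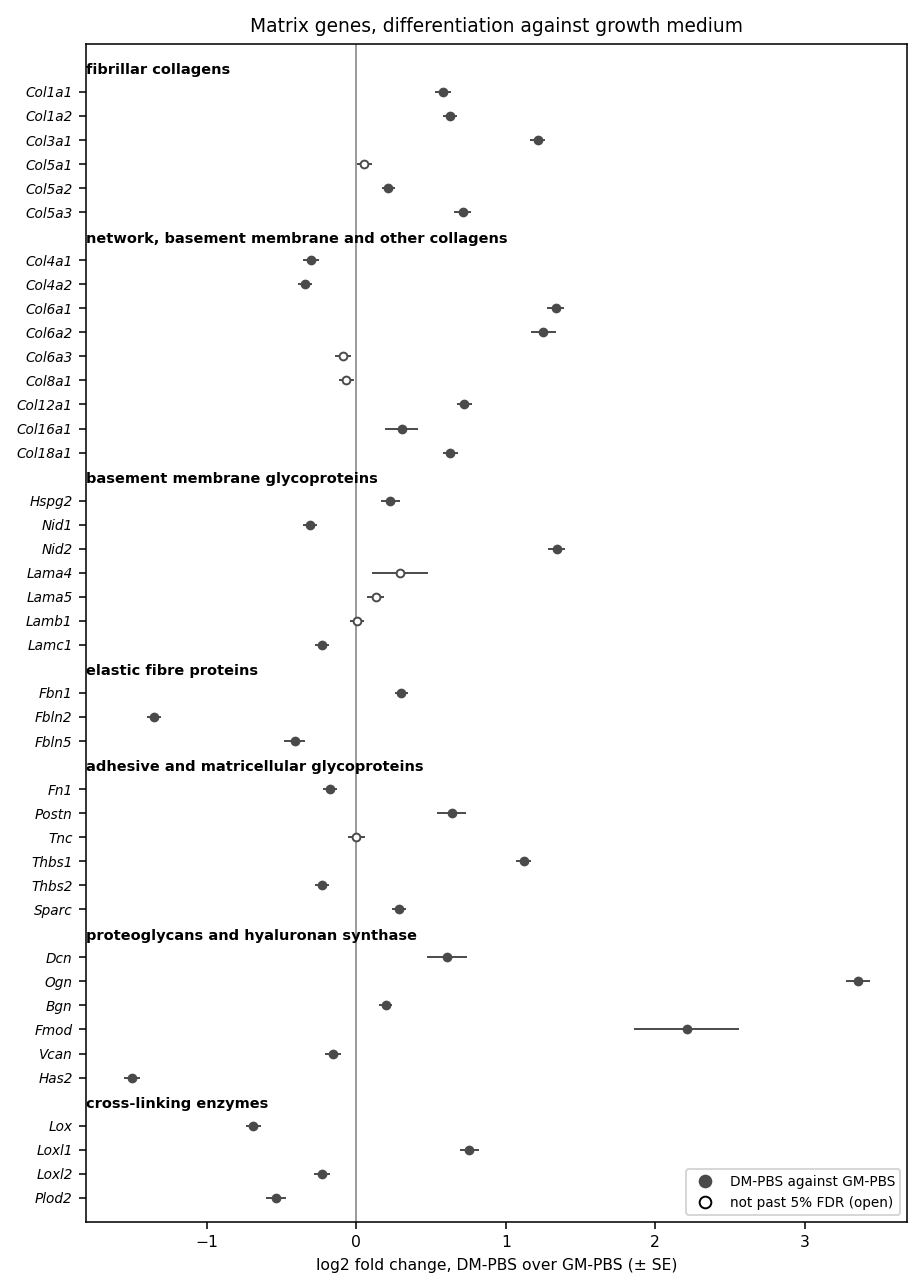
Log2 fold change of DM-PBS over GM-PBS for the 41 tested matrix genes by role (points are estimates from 3 libraries per group, bars ± 1 SE, filled points past 5% FDR). Ogn at 3.36 and Fmod at 2.21 are the highest, and Has2 at -1.50 is the lowest.

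RefSeq's promoter table held windows for 29 of the 43 kept genes, 34 windows in all. Those of Ogn (chr13:49607765-49608064, plus strand) and Tnc (chr4:64046966-64047265, minus strand, GRCm38.p6) are shown because these had the highest and the lowest called AA effect in GM, with the letters TATAAA, read on either strand, in capitals.
Ogn: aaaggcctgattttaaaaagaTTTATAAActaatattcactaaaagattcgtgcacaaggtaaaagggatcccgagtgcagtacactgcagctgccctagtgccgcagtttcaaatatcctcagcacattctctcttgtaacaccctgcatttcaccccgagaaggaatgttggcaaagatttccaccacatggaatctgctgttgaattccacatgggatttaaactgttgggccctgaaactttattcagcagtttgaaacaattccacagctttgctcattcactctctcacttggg
Tnc: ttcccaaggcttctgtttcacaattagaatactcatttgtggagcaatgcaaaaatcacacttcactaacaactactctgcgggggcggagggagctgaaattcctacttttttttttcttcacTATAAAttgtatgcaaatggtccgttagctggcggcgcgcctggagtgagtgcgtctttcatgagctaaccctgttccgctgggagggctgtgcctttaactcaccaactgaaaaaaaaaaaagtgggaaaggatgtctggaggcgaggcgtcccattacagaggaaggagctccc
In Tnc the letters begin at -126 from the gene's start. TATAAA stood in 17.6% of the member windows and in 13.6% of all 32851 promoter windows. GGGCGG stood in 67.6% of the member windows and in 35.7% of all windows, GCGNGGGCG, which can overlap it, in 20.6% and 5.55%, CCAAT in 41.2% and 37.4%, CAGACA in 29.4% and 21.0%, GGAATG in 14.7% of each, CANNTG in 52.9% and 72.3%, and TGANTCA in 2.94% and 7.81%. The CArG box stood in 0% and 1.63%, and the NF-kB site in 2.94% and 4.51%. All 10 motifs were searched on both strands, and a match is a description of letters in the window only. The member shares do not cover the kept genes without a window, among them most of Fn1, Lox, Loxl1, Loxl2 and Thbs1.

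Genes that act on the matrix were followed in 3 lists. Of 18 collagen maturation genes, AA lowered 3 in GM and lowered 6 and raised 2 in DM, where 20.7% of all tested genes were called in GM and 26.4% in DM. The count in GM was no higher than that background. Leprel2, a collagen prolyl 3-hydroxylase, changed by -0.44 ± 0.11 in GM and -0.47 ± 0.11 in DM, and Crtap, cartilage-associated protein, which works with a prolyl 3-hydroxylase, by -0.27 ± 0.052 in GM and -0.17 ± 0.052 in DM. The Crtap call in DM was lost with the GC trend removed and without DM-PBS replicate 1 (adjusted p up to 0.127). P4ha2, a catalytic prolyl 4-hydroxylase subunit, fell in GM (-0.16 ± 0.051), a call lost without GM-AA replicate 3, GM-PBS replicate 2 or GM-PBS replicate 3 (adjusted p up to 0.12). Adamts2, the procollagen amino-propeptidase, fell in DM (-0.47 ± 0.087). P4hb, the other prolyl 4-hydroxylase subunit and a disulphide isomerase, rose in DM (0.32 ± 0.046, adjusted p = 1.64e-06), as did Serpinh1, the collagen chaperone HSP47, chosen after its values were seen (0.18 ± 0.043). The median change was -0.056 in GM and -0.13 in DM.

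Of 22 TGF-beta pathway genes, AA lowered 15 and raised 2 in GM, and lowered 11 and raised 2 in DM, with medians of -0.31 in GM and -0.29 in DM. Over all tested genes 11% were lower and 9.76% higher in GM, and 13.8% lower and 12.6% higher in DM. Ltbp1 and Ltbp2, which belong to the latent TGF-beta binding protein family, changed by -0.50 ± 0.05 and -0.73 ± 0.045 in GM and by -0.41 ± 0.05 and -0.63 ± 0.046 in DM. Ctgf, a matricellular protein induced by TGF-beta and by YAP, changed by -0.52 ± 0.052 in GM and -0.90 ± 0.059 in DM (adjusted p = 1.29e-13). The antisense gene Gm15270 covers 23.2% of its exon bases, with the same limit as for Fbn1. Likewise, the antisense gene D030025P21Rik covers 9.34% of the exon bases of Ltbp2. The ligand genes Tgfb1 and Tgfb2 went in opposite directions. Tgfb2 rose, by 0.80 ± 0.13 in GM and 1.18 ± 0.088 in DM, and Tgfb1, chosen after its values were seen, changed by -0.36 ± 0.054 in GM and -0.51 ± 0.055 in DM. Tgfb3, also a ligand gene, was called in neither medium. Its means were 91.0 CPM in GM-AA, 91.9 CPM in GM-PBS, 147 CPM in DM-AA and 138 CPM in DM-PBS. The other gene called higher in both media was Tgfbr2. Its means were 380 CPM in GM-AA, 281 CPM in GM-PBS, 524 CPM in DM-AA and 395 CPM in DM-PBS.

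Of 17 tested matrix receptor genes, AA lowered 5 and raised 3 in GM, and lowered 6 and raised 3 in DM, with medians of -0.060 in GM and -0.0087 in DM, where 20.7% of all tested genes were called in GM and 26.4% in DM. The integrin subunits Itgb3 and Itgb5, partners of the alpha v subunit in receptors for vitronectin and fibronectin, changed by -0.53 ± 0.052 and -0.55 ± 0.051 in GM and by -0.84 ± 0.054 and -0.79 ± 0.05 in DM. Sdc4 (syndecan 4), a fibronectin co-receptor, changed by -0.51 ± 0.044 in GM and -0.63 ± 0.046 in DM. The 3 genes that rose in both media, chosen after their values were seen, were Sdc2 (syndecan 2; 0.52 ± 0.052 in GM and 0.24 ± 0.05 in DM), Itga7, the alpha 7 integrin subunit of the muscle laminin receptor (0.23 ± 0.045 in GM and 0.19 ± 0.045 in DM), and Cd44, a hyaluronan receptor (0.20 ± 0.045 in GM and 0.12 ± 0.045 in DM). The Cd44 call in DM was lost with the replicate block, with the GC trend removed and without DM-AA replicates 2 or 3 or any of the DM-PBS replicates (adjusted p up to 0.166).

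Markers of other cell types were set beside these changes. The summed fibroblast and fibro-adipogenic list stood at 248 to 255 CPM in GM-AA and 244 to 251 CPM in GM-PBS, and at 250 to 271 CPM in DM-AA and 273 to 290 CPM in DM-PBS, and of its 4 tested genes AA lowered 1 in GM (Pdgfra) and 3 in DM (Cd34, Pdgfra and Pi16). The osteoblast and chondrocyte list stood at 188 to 213 CPM in GM-AA and 256 to 270 CPM in GM-PBS, and at 162 to 175 CPM in DM-AA and 213 to 243 CPM in DM-PBS, with both tested genes, Sox9 and Runx2, lower with AA in each medium. The summed epithelial list stood at 70.0 to 76.6 CPM in GM-AA and 85.0 to 87.8 CPM in GM-PBS, and at 29.9 to 31.2 CPM in DM-AA and 27.7 to 31.1 CPM in DM-PBS. Krt19 carried that sum, with means of 71.2 CPM in GM-AA and 85.7 CPM in GM-PBS, and the other 5 epithelial markers averaged under 1 CPM in every group. The summed myoblast list given above was higher with AA in both media, with 5 of 8 markers called higher in each, and Myod1 was called lower in GM, at a mean of 178 CPM in GM-AA and 225 CPM in GM-PBS. Des held most of that sum, with means of 1695 CPM in GM-AA, 1451 CPM in GM-PBS, 1789 CPM in DM-AA and 1547 CPM in DM-PBS. Pax7 and Msc were called in neither medium. For these counts, AA lowered 11% of all tested genes in GM and 13.8% in DM, and raised 9.76% in GM and 12.6% in DM. The part of these markers in the matrix changes was not tested.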

How the data were processed

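RNA-seq of 12 C2C12 libraries was used. The authors deposited 1 table with raw read counts per gene and RPKM values per gene, per the file headers, for 23446 genes. The aligner was BWA (0.5.9-r16) and the genome mm9, according to the submitters' processing notes. How reads were assigned to genes, with which annotation and with or without strand is not given in the sources used. All columns were matched to the labels. RPKM served only for levels between genes.

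Counts were tested with edgeR 4.0.16 in R 4.3.3 (filterByExpr, TMM, glmQLFit and glmQLFTest, 4 group means, two-sided), which shares 1 estimate of the spread with 8 residual degrees of freedom. Each gene's spread was also moderated by that of other genes, with a median prior of 24.8 degrees of freedom. Benjamini-Hochberg adjustment ran over the 12230 genes of a comparison. The SE is the absolute log2 fold change divided by the square root of F, and intervals are 95% by a normal approximation with that SE. DESeq2 1.42.0 and mgcv 1.9.3 (GC and length trend) gave alternatives. Scripts were tested on simulated data. Exon overlaps and GC content were taken from GENCODE on GRCm38, and promoters from RefSeq on GRCm38.p6, matched by symbol. No coordinate was converted from mm9.

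Per library, values are given for up to 3 genes of each role with the smallest AA p, up to 2 with the largest medium change, and all with a differing AA effect. Of these, Fmod is given by group means and SD only, and Col5a2, Col6a1 and Col6a2 by their DM libraries only. Of each pathway list up to 3 called genes with the smallest p are named for each AA comparison. Further genes of these lists were added after their values were seen. Genes in counts of 5 or fewer were named after their values were seen. The members and lists were chosen with earlier results of these data known.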

Additional observations from a re-analysis of the deposited data

Results flagged for a closer look

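The AA effect in DM minus that in GM passed the test for 13 matrix genes, in log2 units. It was -0.94 for Ogn, -0.83 for Dcn, -0.73 for Fbln5, -0.68 for Postn, -0.55 for Thbs1, -0.43 for Col5a3 and -0.39 for Nid1. It was -0.36 for Loxl1, -0.34 for Nid2, -0.29 for Col3a1, -0.25 for Lox, -0.24 for Fn1 and 0.57 for Vcan. Among the named genes of the pathway lists, the difference was 0.24 for P4hb, 0.20 for Serpinh1, -0.38 for Ctgf, -0.30 for Itgb3, -0.24 for Itgb5 and -0.28 for Sdc2. The call of Serpinh1 was lost with the replicate block and in 10 of the 12 fits without 1 library (adjusted p up to 0.16), and that of Itgb5 with DESeq2, with the replicate block and in 8 of those fits (adjusted p up to 0.135). The call of P4hb was lost in 5 of those fits (adjusted p up to 0.0811), that of Itgb3 without DM-AA replicate 3 (adjusted p = 0.0624) and that of Sdc2 without DM-AA replicate 1 (adjusted p = 0.0609). A difference between the AA effects of the 2 media in edgeR's quasi-likelihood test marked each of these.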

How the results depend on the processing

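Alternatives were DESeq2, RLE size factors, no filter on low counts, a fit of the compared groups only, a replicate block, removal of the GC and length trend with and without that block, and leaving out each library in turn. Of the calls in the report, 13 of 19 held in every alternative for AA in GM, 20 of 28 for AA in DM, 32 of 34 for the media and 10 of 13 for the difference of effects. Over the genes whose values are printed, 1832 alternative values kept direction and side of the threshold, 76 lost the call, 27 gained one and 6 changed sign. The sign changes were in genes not called: Col5a3 in GM (0.074 with the GC and length trend removed, 0.074 with the replicate block added to that, and -0.085 to 0.019 over the fits without 1 library), Thbs1 in GM (-0.087 to 0.027 over those fits) and Ogn in DM (-0.086 to 0.025). Genes higher with AA in GM numbered 11, against 7, with the GC trend removed and the replicate block, and also without GM-AA replicate 1. Genes higher with AA in DM numbered 4, against 9, without DM-AA replicate 3. The cause was not tested. Over the fits without 1 library, the genes called in GM numbered 6 to 11 higher and 9 to 15 lower, in DM 4 to 9 higher and 16 to 20 lower, between media 21 to 22 higher and 12 to 13 lower, and in the difference of effects 1 higher and 9 to 12 lower. Tgfbi entered most of these fits as a tested gene and was called between media in 5 of 6, and over the 41 genes alone 20 to 21 were higher between media.

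Same-numbered libraries had correlations of deviations from the group means of -0.0676 to 0.0823, so the numbers were not taken as pairs. With the replicate block the counts were 7 higher and 12 lower in GM, 8 higher and 19 lower in DM, 21 higher and 13 lower between media and 1 higher and 12 lower in the difference. Low counts limit Fmod, Lama4, Dcn and Col16a1 most.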
